A study of Mus musculus with 6 samples.

Results

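The kallikreins Klk5, Klk6, Klk7, Klk8, Klk10, Klk11, Klk12, Klk13 and Klk14 and their inhibitor Spink5 were followed in fetal mouse epidermis. The members were these 10 listed genes, found by symbol among the 49452 gene rows of the deposited table, with 1 row each. The study compared 3 control libraries (261, 262 and 264) with 3 libraries labelled Rictor -/- (263, 265 and 266), each made from isolated epidermis. The mice were C57BL/6 at E19.5, near the end of gestation. Rictor is the subunit that sets mTOR complex 2 apart from mTOR complex 1. The labels name neither a Cre line nor a promoter behind the deletion, and they do not say which alleles the controls carried or whether each library came from its own animal. P-values therefore reflect only the spread among these libraries, which may be technical.

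Tissue kallikreins are secreted serine proteases made as inactive precursors. In the upper epidermis they are released from lamellar granules, activate each other in a cascade and cut the corneodesmosomes that hold cornified cells together, so that the outermost cells can be shed. Spink5 encodes LEKTI, a multidomain inhibitor that restrains several of these proteases. Its loss causes Netherton syndrome in people and a lethal barrier defect in mice.

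Values are FPKM, fragments scaled by transcript length and library total, which allow levels to be compared between genes. Differences are knockout-labelled minus control on the log2(FPKM + 1) scale, which understates the change of low genes, and are given ± SE. Rictor itself ranged from 4.37 to 6.02 FPKM among the controls and from 6.83 to 7.04 FPKM among the knockout-labelled libraries, and its difference of 0.33 ± 0.11 missed the threshold (limma adjusted p = 0.0694). It passed with the length and GC adjustment (0.25, adjusted p = 0.0492), with array weights (adjusted p = 0.0107) and with median scaling without control 264 (adjusted p = 0.0345). Since exons that were not deleted still give reads, this does not check the labels, and every direction below is that of the libraries labelled knockout. Summed FPKM ran from 609375 to 672925 per library. Deviations from the gene means followed exonic length most strongly in control 264 (Spearman's rho -0.359 across 13472 genes, which are not independent replicates) and ran from 0.173 to 0.263 in the knockout-labelled libraries. The 9 kallikreins have exonic lengths of 1195 to 2297 bases and Spink5 has 4785, beside a median of 4034 in tested genes. Values with a length and GC adjustment and without control 264 are therefore given beside several of the results.

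The kallikreins did not move as a block. Klk6, Klk10 and Klk12 rose in the knockout-labelled libraries, Klk13 and Klk8 fell, and the 3 others tested did not pass. Spink5 rose. In all, 6 of the 9 tested members passed limma's Benjamini-Hochberg adjusted p threshold of 0.05 (4 higher and 2 lower), beside 23.5% of the 13500 tested genes (7.91% higher and 15.6% lower). Of all called genes 33.7% were higher as deposited and 49.8% after median scaling, under which 4 members were higher and 1 lower. The same 6 members had groups that did not overlap, beside 45.8% of tested genes. The median difference of the 9 was 0.01, beside -0.06 over all tested genes. Klk12 reached the filter of a mean of 1 FPKM in the knockout-labelled libraries alone, so it had to be higher to be tested. Klk14 did not reach it in either group.

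**Figure D1:**
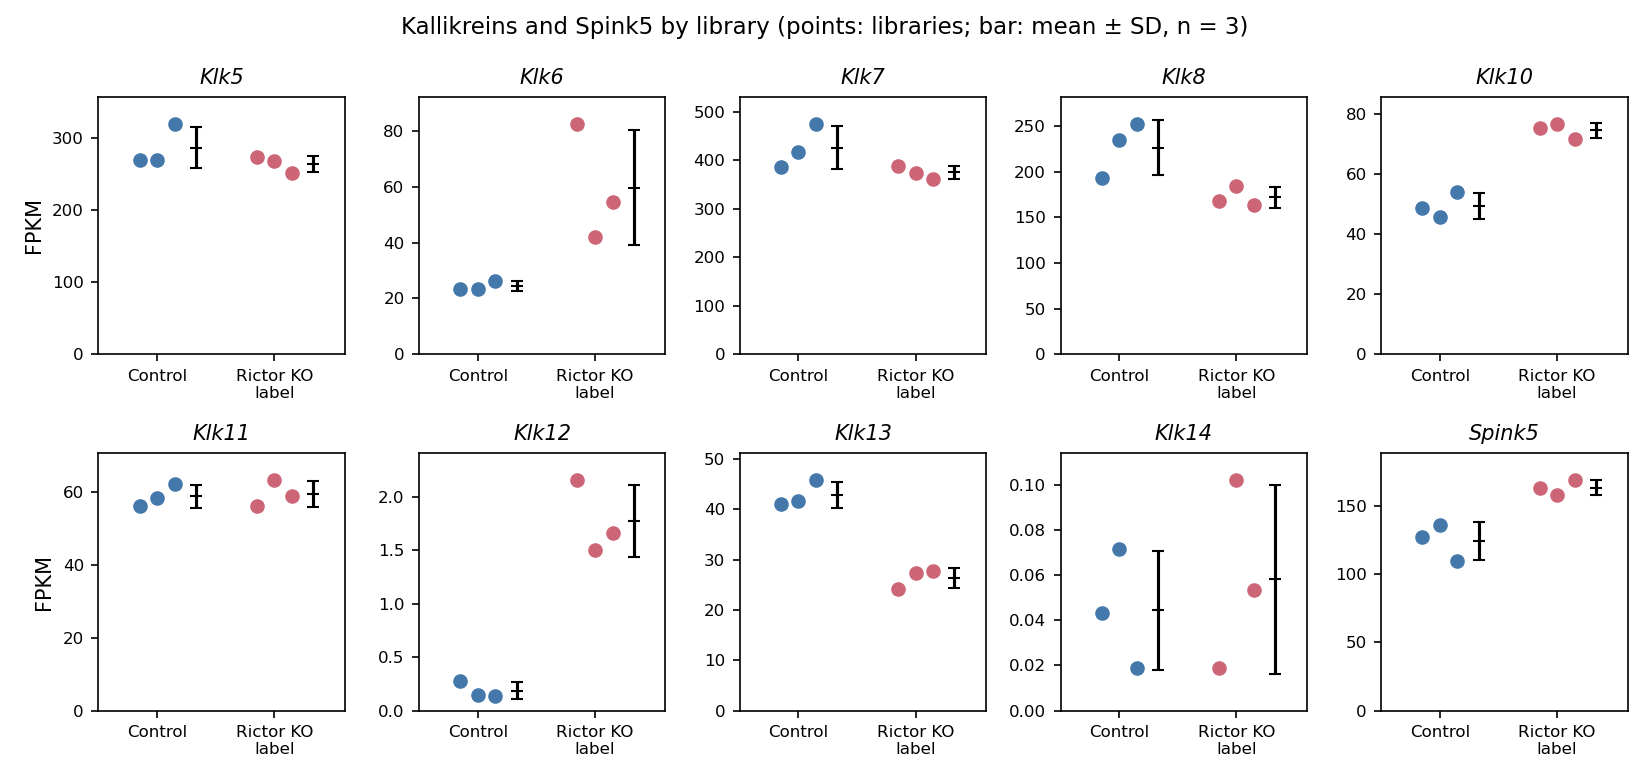
FPKM of each of the 10 members (y axis, from 0, a scale of its own in each panel) in 3 control libraries (blue) and 3 libraries labelled Rictor knockout (red), with the mean ± SD beside the points. Points stand from left to right for libraries 261, 262, 264 and 263, 265, 266; the groups are apart for Klk6, Klk8, Klk10, Klk12, Klk13 and Spink5.

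Klk7 and Klk5 are the best known proteases of shedding. Klk7, whose product cuts like chymotrypsin and degrades corneodesmosin and desmocollin 1, was the most abundant member. Controls 261, 262 and 264 held 387, 418 and 475 FPKM, and knockout-labelled 263, 265 and 266 held 390, 375 and 362 FPKM. The groups overlapped, since control 261 lay below 263, and the difference was -0.18 ± 0.09 (95% interval -0.40 to 0.04, limma adjusted p = 0.205). Klk5, the trypsin-like protease that activates itself and then the Klk7 precursor, had 270, 270 and 320 FPKM in the controls and 273, 269 and 251 FPKM in the knockout-labelled libraries. Only control 264 stood apart, and the difference was -0.11 ± 0.09 (95% interval -0.33 to 0.10, limma adjusted p = 0.391). After the length and GC adjustment its sign turned to 0.055 and the difference of Klk7 came to -0.01. Without control 264 the differences were -0.03 for Klk5 and -0.10 for Klk7. Neither interval holds a doubling or a halving, written as 1 or -1 on this scale. Klk7 exceeded Klk5 in every library, by a factor of 1.43, 1.55 or 1.49 among controls and of 1.42, 1.39 or 1.44 among knockout-labelled libraries, with overlapping groups.

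Klk14, a trypsin-like protease of human cornified layer, was nearly unmeasured in these fetal libraries. Its values ran from 0.0188 to 0.0715 FPKM in the controls and from 0.0190 to 0.102 FPKM in the others, and it was not tested. Klk8, also called neuropsin, is a trypsin-like protease of the granular layer and of the hippocampus. It had 193, 235 and 252 FPKM in the controls and 168, 185 and 163 FPKM in the knockout-labelled libraries. Control 261 was closest to the other group and the groups did not overlap. Klk8 fell by 0.39 ± 0.11 (limma adjusted p = 0.0492), a mean 1.32-fold higher in the controls. That call lay at the threshold and was lost under 14 of 20 alternatives, among them the length and GC adjustment (-0.24, adjusted p = 0.140) and array weights (-0.22, adjusted p = 0.0606). Leaving out control 264 also ended it (-0.31, adjusted p = 0.0716), as did leaving out control 262 or any knockout-labelled library.

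The largest rises belonged to Klk6 and Klk12. Klk6, a trypsin-like protease also made in the brain and spinal cord, had 23.4, 23.5 and 26.4 FPKM in the controls and 82.5, 42.1 and 54.5 FPKM in 263, 265 and 266. The controls lay close together, whereas the knockout-labelled libraries spread widely, with 263 highest and 265 lowest. The mean rose 2.44-fold, from 24.4 ± 1.71 to 59.7 ± 20.7 FPKM (SD, n = 3 per group), or by 1.20 ± 0.22 (limma adjusted p = 0.0124). The wound keratin Krt6a, named after its values were seen, stood in the same order in those libraries, at 1520, 698 and 1156 FPKM in 263, 265 and 266. Among controls 261, 262 and 264 the order differed, with Krt6a at 52.8, 42.9 and 43.7 FPKM. A link between the 2 genes was not tested.

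Klk12, a trypsin-like protease of the same cluster, was close to unmeasured in the controls, at 0.278, 0.146 and 0.132 FPKM. In the knockout-labelled libraries it had 2.15, 1.503 and 1.66 FPKM. Every knockout-labelled library was above every control, yet all 6 values were low beside those of the other called members. Its mean was 9.55-fold higher, and the log2 difference was 1.22 ± 0.14 (limma adjusted p = 0.00319). The size of that difference depends on the pseudocount, at 2.73 with 0.1 and 0.38 with 5, and the call held with each.

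Klk10 rose more modestly and more evenly. It had 48.7, 45.7 and 54.2 FPKM in the controls and 75.3, 76.7 and 71.9 FPKM in the knockout-labelled libraries, so the groups lay well apart with little spread in either. The rise was 0.58 ± 0.08, or 1.51-fold in mean FPKM (limma adjusted p = 0.00511). Klk11, its neighbour on the chromosome and a trypsin-like protease, had 56.1, 58.2 and 62.2 FPKM in the controls and 56.0, 63.1 and 58.9 FPKM in the others. These ranges nearly coincide, and the difference was 0.01 ± 0.07 (95% interval -0.16 to 0.19, limma adjusted p = 0.921), or 0.18 after the length and GC adjustment (adjusted p = 0.113) and 0.05 without control 264. Klk13 moved the other way. It had 41.0, 41.5 and 45.7 FPKM in the controls and 24.1, 27.2 and 27.8 FPKM in the knockout-labelled libraries. No library came near the other group, and Klk13 fell by 0.68 ± 0.08 (limma adjusted p = 0.00353), a mean 1.62-fold higher in the controls.

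Spink5, the inhibitor, lies apart from the kallikreins on chromosome 18 (ENSMUSG00000055561). It had 127, 136 and 109 FPKM in controls 261, 262 and 264 and 163, 158 and 169 FPKM in 263, 265 and 266. Control 264 was lowest, and every knockout-labelled library was above every control. Spink5 rose 1.31-fold in mean FPKM, by 0.40 ± 0.09 (limma adjusted p = 0.0260). The call held without control 264 (0.31, adjusted p = 0.0146) and with the length and GC adjustment (0.43, adjusted p = 0.0342). It was lost under 7 of 20 alternatives, among them the term for sex (adjusted p = 0.0718) and leaving out control 261 or 263, 265 or 266 (adjusted p = 0.0648, 0.0844, 0.0650 and 0.0932).

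**Figure D2:**
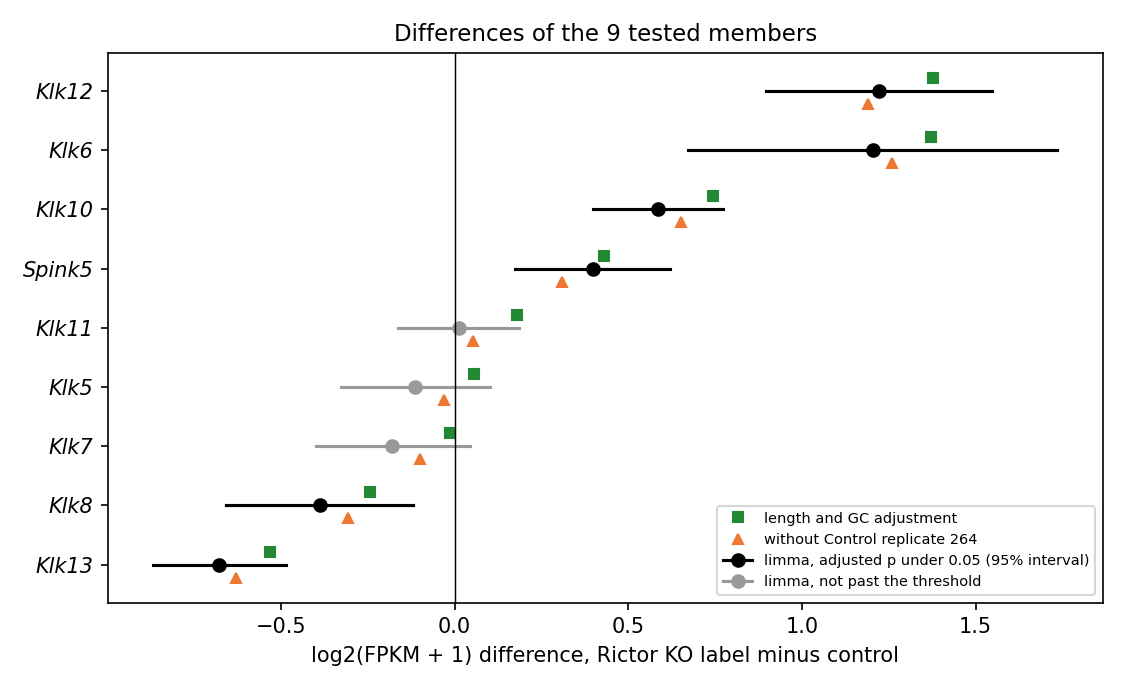
Difference on the log2(FPKM + 1) scale (x axis, knockout-labelled minus control) of the 9 tested members (y axis), with limma's 95% interval as a line, black where the adjusted p was under 0.05. Green squares give the length and GC adjustment and orange triangles the value without control 264; Klk5 crosses 0 after the adjustment, and the other signs shown are kept.

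The summed level of the 9 kallikreins overlapped between the groups while its makeup shifted. Controls 261, 262 and 264 summed to 1019, 1092 and 1236 FPKM, and 263, 265 and 266 to 1071, 1039 and 992 FPKM. Klk5, Klk7 and Klk8 together made up 83.4%, 84.5% and 84.7% of that sum in the controls and 77.6%, 79.7% and 78.3% in 263, 265 and 266. The share of Klk6 went from 2.19% ± 0.0891 to 5.75% ± 1.84 and that of Klk10 from 4.45% ± 0.299 to 7.22% ± 0.180 (SD, n = 3 per group). The share of Klk13 went from 3.84% ± 0.163 to 2.56% ± 0.283. Klk5 held 24.8% to 26.5% of the sum in every library. Klk6 stood at 0.571, 0.565 and 0.577 of the level of Klk13 in the controls and at 3.42, 1.54 and 1.96 times its level in 263, 265 and 266, so that the order of these genes was turned round in each knockout-labelled library.

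Relative to the inhibitor the sum was lower in the knockout-labelled libraries. Controls 261, 262 and 264 held 7.99, 8.003 and 11.3 times as much summed kallikrein FPKM as Spink5 FPKM, and 263, 265 and 266 held 6.55, 6.56 and 5.87 times as much. Control 264 was highest by far, and the other controls lay close together, still above each knockout-labelled library. The ratio is a description of RNA levels with no test. It sets short genes against a long one, and length trends differed between the groups. Spearman's rho with exonic length was -0.359 in control 264 and 0.173, 0.191 and 0.263 in 263, 265 and 266. In controls 261 and 262 it was -0.00728 and 0.00280. The part of these trends in the ratio, also against controls 261 and 262, was not tested.

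**Figure D3:**
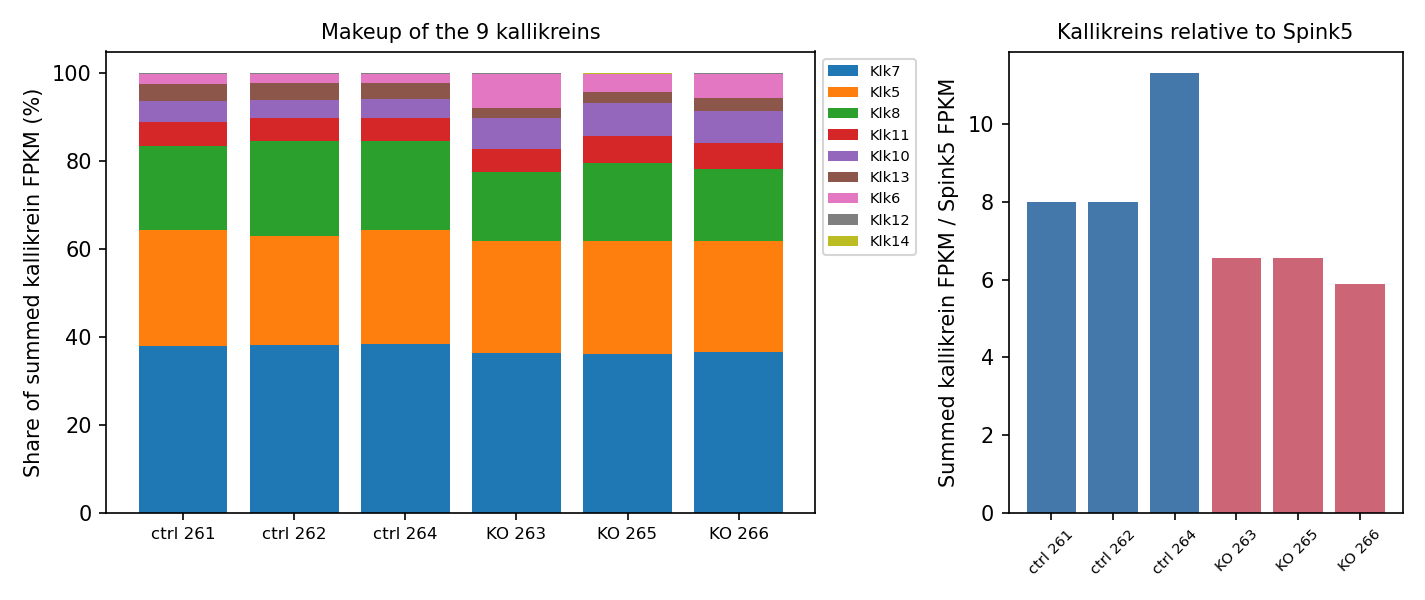
Left, share of each kallikrein in the summed FPKM of the 9 (y axis, percent) for each library (x axis). Right, that sum divided by the FPKM of Spink5, from 5.87 to 6.56 in the knockout-labelled libraries (red) and from 7.99 to 11.3 in the controls (blue).

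The order of levels was largely shared. In the controls it ran Klk7, Klk5, Klk8, Spink5, Klk11, Klk10, Klk13, Klk6, Klk12 and Klk14, and the ranges of neighbours overlapped only for Klk10 and Klk13. By mean level Klk7 ranked 178 and Klk6 ranked 3678 among 21725 protein-coding genes in the controls. In the knockout-labelled libraries the order was Klk7, Klk5, Klk8, Spink5, Klk10, Klk6, Klk11, Klk13, Klk12 and Klk14. There Klk8 and Spink5 overlapped, as did Klk10 with Klk6 and Klk6 with Klk11. Klk6 stood at rank 1358 of the protein-coding genes and Klk13 went from rank 2072 to 3355.

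All 9 kallikreins lie on the plus strand within 160.8 kb of chromosome 7, from 43690418 to 43851181 on GRCm38 in GENCODE M21, in the order Klk14, Klk13, Klk12, Klk11, Klk10, Klk8, Klk7, Klk6 and Klk5. Members that rose, fell or did not pass were interleaved along this stretch. Klk11, with no call, sits 1.0 kb downstream of Klk12 and 1.8 kb upstream of Klk10, which both rose. Klk6 lies between Klk7 and Klk5, neither of which passed, with gaps of 8.1 kb and 9.9 kb. Klk9, a further kallikrein between Klk10 and Klk8, had 77.5, 78.1 and 71.1 FPKM in the controls and 92.8, 97.4 and 86.9 FPKM in the knockout-labelled libraries and rose by 0.29 ± 0.07 (limma adjusted p = 0.0329), or by 0.44 after the length and GC adjustment. Its call was lost without a filter on low values, with a term for sex and when control 261 or 262 or any knockout-labelled library was left out. The other 16 tissue kallikreins of the list, Klk1, Klk4, Klk15 and the Klk1b genes, stayed under 1 FPKM in every library. They are close copies of each other, and the labels do not say how shared reads were split. Of the genes flanking the whole cluster, Ctu1, a tRNA-modifying enzyme, fell by 0.33 ± 0.06 (limma adjusted p = 0.0152), a call lost with the length and GC adjustment or without 263, 265 or 266. Gm36546, 1700028J19Rik and Gm36864 did not reach the filter. An antisense transcript, 2310002F09Rik, shares 382 exonic bases with Klk8 and 287 with Klk14. The labels do not say whether the libraries kept strand, so reads in those bases cannot be told apart. The antisense gene had 1.53 to 4.21 FPKM across the libraries, against at least 163 FPKM for Klk8 and only 0.0188 to 0.102 FPKM for Klk14. How much of the Klk14 value came from antisense reads was not tested.

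**Figure D4:**
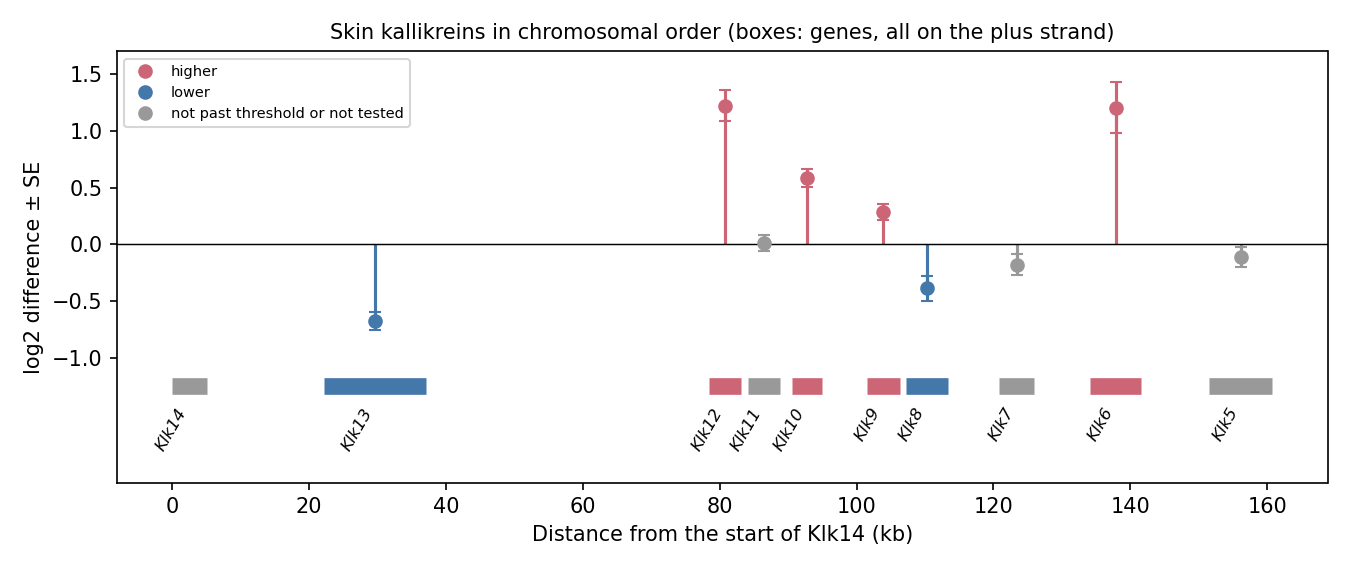
The skin kallikreins by distance from the start of Klk14 (x axis, kb), with boxes for the genes and points for the log2(FPKM + 1) difference ± SE (y axis, knockout-labelled minus control) of tested genes. Rises (red, Klk12, Klk10, Klk9 and Klk6) and falls (blue, Klk13 and Klk8) are interleaved with genes that did not pass or were not tested (grey).

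The promoters of the 5 called kallikreins are shown because these genes moved in opposite directions within a single cluster. Each is the RefSeq window on GRCm38.p6, plus strand, from 250 bases before a start site to 50 after it, and Klk6 has a further annotated start at window chr7:43824294-43824593. Windows were found for 9 of the 10 members. Capitals mark TTAAAA, letters searched after the windows had been read.
Klk6 (chr7:43825200-43825499): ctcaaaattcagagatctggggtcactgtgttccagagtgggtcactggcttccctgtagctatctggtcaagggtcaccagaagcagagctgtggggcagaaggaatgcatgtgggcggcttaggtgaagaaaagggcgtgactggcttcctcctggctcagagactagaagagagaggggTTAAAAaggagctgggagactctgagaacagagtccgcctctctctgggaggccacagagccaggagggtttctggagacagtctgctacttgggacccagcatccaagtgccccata
Klk10 (chr7:43780804-43781103): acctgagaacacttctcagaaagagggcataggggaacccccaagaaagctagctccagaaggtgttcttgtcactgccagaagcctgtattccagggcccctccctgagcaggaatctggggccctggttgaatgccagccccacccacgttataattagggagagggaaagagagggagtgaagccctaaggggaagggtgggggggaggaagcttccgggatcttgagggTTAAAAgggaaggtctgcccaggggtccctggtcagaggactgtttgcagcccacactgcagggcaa
Klk12 (chr7:43768850-43769149): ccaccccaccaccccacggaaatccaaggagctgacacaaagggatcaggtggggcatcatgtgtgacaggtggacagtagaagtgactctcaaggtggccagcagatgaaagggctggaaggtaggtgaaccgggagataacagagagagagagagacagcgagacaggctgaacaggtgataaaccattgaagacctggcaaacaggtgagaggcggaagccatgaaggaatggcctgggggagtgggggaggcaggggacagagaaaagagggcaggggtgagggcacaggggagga
Klk8 (chr7:43797327-43797626): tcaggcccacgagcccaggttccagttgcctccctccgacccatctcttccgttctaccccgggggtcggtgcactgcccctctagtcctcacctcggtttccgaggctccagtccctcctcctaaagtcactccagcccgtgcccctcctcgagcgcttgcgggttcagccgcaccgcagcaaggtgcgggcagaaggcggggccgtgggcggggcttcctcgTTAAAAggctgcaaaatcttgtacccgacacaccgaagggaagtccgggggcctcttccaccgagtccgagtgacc
Klk13 (chr7:43712317-43712616): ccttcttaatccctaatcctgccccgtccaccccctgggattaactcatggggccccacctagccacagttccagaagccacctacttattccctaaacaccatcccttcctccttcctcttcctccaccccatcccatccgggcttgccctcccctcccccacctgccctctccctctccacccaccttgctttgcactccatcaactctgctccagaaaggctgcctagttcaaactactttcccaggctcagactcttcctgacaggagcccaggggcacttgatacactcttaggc

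The letters TTAAAA begin 68 bases before the shown start of Klk6, 17 before that of Klk10 and 26 before that of Klk8, counting the base next to the start as 1. They occur in 4 of the 11 windows of the members, the fourth being one of the windows of Klk11, and on either strand in 19.2% of all 32851 windows of that length. Of the genes that held them, Klk6 and Klk10 rose, Klk11 was not called and Klk8 fell, in a call lost under 14 of 20 alternatives. Klk12, which rose, and Klk13, which fell, did not hold them. So few genes cannot show whether the letters go with a direction, which was not tested. No member window held TGANTCA, the AP-1 site (7.81% of all windows), TATAAA, the TATA box (13.6%), or AACCNGTT, a grainyhead site (2.09%), on either strand. A match is a run of letters, and its absence says only that these letters are not in this window.

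Genes upstream of and beside the kallikreins were mostly lower or did not pass. Of 24 listed epidermal proteases 20 were tested, of which 1 rose and 9 fell (median -0.16). Among all tested genes 7.91% were called higher and 15.6% lower. Under median scaling 1 protease rose and 7 fell, while 49.8% of all called genes were higher. Prss8, the membrane-anchored protease prostasin, fell from 50.9 ± 3.82 to 32.96 ± 3.77 FPKM (SD, n = 3 per group). St14, which encodes matriptase, an activator of kallikrein precursors, differed by -0.10 ± 0.07 (limma adjusted p = 0.354). The smallest p-values belonged to Tmprss4 (-0.997 ± 0.085) and Tmprss11f (-0.62 ± 0.06), membrane serine proteases, and Casp14 (-0.77 ± 0.08), the caspase of cornification, which all fell. Prss27 was the protease that rose, and its call was lost under 8 of 20 alternatives.

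Other inhibitors moved in both directions. Of 36 listed inhibitors 28 were tested, and 8 rose and 7 fell (median 0.09). Among all tested genes 7.91% were called higher and 15.6% lower. Wfdc12 and Wfdc18, counted as falling, reached the filter in the controls alone, so they had to be lower to be tested. Slpi, a secreted inhibitor of serine proteases including Klk7, rose by 3.84 ± 0.26. It was low in the controls, at 0.857, 1.25 and 1.03 FPKM, against 35.7, 17.8 and 34.9 FPKM in 263, 265 and 266. The size of its difference ran from 2.46 to 4.64 over 20 alternatives, with the call kept. Serpinb2 (1.57 ± 0.17) and Serpinb6c (1.18 ± 0.13), of the clade B serpins, rose as well. Serpina12, the serpin vaspin that inhibits Klk7, fell by 0.39 ± 0.10 (limma adjusted p = 0.0379), a call lost under 11 of 20 alternatives, among them median scaling, the length and GC adjustment and leaving out control 264. Of the other Spink genes in the list, Spink1, Spink2, Spink6, Spink11, Spink12 and Spink14 stayed under 1 FPKM in every library, so Spink5 was the abundant Spink gene among the 7 examined.

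Among the structures that kallikreins cut, Cdsn, which encodes corneodesmosin, stood at 392, 366 and 370 FPKM in the controls and at 386, 398 and 348 FPKM in the knockout-labelled libraries, a difference of 0.00 ± 0.08 (95% interval -0.19 to 0.19). Dsc1, the desmocollin of upper layers, differed by 0.15 ± 0.11 (limma adjusted p = 0.382). Of 18 listed corneodesmosome and desmosome genes 17 were tested, and 5 rose and 2 fell (median 0.15). Among all tested genes 7.91% were called higher and 15.6% lower. Dsg3 (1.03 ± 0.11) and Dsg2 (0.41 ± 0.07), desmogleins of lower layers, rose and Dsg4 (-0.55 ± 0.10), of hair and upper epidermis, fell. Of the tested Dsg1 genes, Dsg1b rose (0.449 ± 0.095) and Dsg1a fell (-0.329 ± 0.094), the latter a call lost under 10 of 20 alternatives. Of 21 listed targets and related genes 17 were tested, with 2 higher and 3 lower (median -0.17). In all, 5 of these 17 were called, beside 23.5% of all tested genes. Without control 264 the counts were 2 higher and 7 lower. F2rl1, the receptor PAR2 that kallikreins can cleave, differed by 0.13 ± 0.11 (limma adjusted p = 0.427). Sult2b1, which makes cholesterol sulfate, an inhibitor of serine proteases in the cornified layer, rose by 0.31 ± 0.07, a call lost with a term for sex and without any single library but control 264. Il18, a cytokine precursor, fell by 0.51 ± 0.07. Tslp, which is induced through PAR2 when Spink5 is lost, and Camp stayed under 1 FPKM in every library.

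The labelled tissue was checked against its markers. The counts of each list stand beside 7.91% of all tested genes called higher and 15.6% called lower. Of 12 epidermal markers 11 were tested, all but Krt2 reaching 1 FPKM, and they summed to 35062 to 36712 FPKM in the controls and 38781 to 39937 FPKM in the knockout-labelled libraries, with Krt5, Krt14 and Sfn higher and Dsg1a lower. Without control 264 the counts were 3 higher and 3 lower. The call of Dsg1a was lost under 10 of 20 alternatives and that of Krt5 under 2, without a filter on low values and without 263. The granular and cornified layer list, in whose cells kallikreins are made, had 2 of 13 tested genes higher and 2 lower, and 2 and 6 without control 264. Its summed level was 8737 to 12317 FPKM in the controls and 8131 to 10220 FPKM in the others. Hair follicle genes (12 of 16 lower) summed to 2022 to 2511 FPKM in the controls and 1267 to 1448 FPKM in the others, and sebaceous genes (10 of 11 lower) to 220.5 to 254.7 and 119.7 to 140.5 FPKM. Melanocyte genes (4 of 7 lower) summed to 378.7 to 460.8 and 290.5 to 322.3 FPKM. Myeloid and lymphoid genes (6 of 8 lower) summed to 47.2 to 63.0 and 33.6 to 34.0 FPKM, with 3 lower without control 264. Cd3e, of this list, reached the filter in the controls alone, so it had to be lower to be tested. Fibroblast genes (4 of 7 higher) summed to 408.5 to 471.7 and 509.9 to 552.8 FPKM, with Pdgfra and Lum under 1 FPKM. The mean of Vim went from 189 to 257 FPKM, and Thy1, Col1a1 and Col1a2 also rose from lower levels. Dcn (105 and 111 FPKM), Postn (109 and 104 FPKM) and Col3a1 were not called. No muscle gene of 5 was called, and the 6 endothelial markers stayed under 1 FPKM. Kallikreins are also made in hair follicles and glands, and the part of these lists in the differences above was not tested. In bulk samples fewer cells of a type and less RNA per cell cannot be told apart.

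Genes with the profile most like each called member over the 6 libraries were found by the root mean square difference of log2(FPKM + 1) values centred on each gene's mean, among tested protein-coding genes. For Klk10 these were Mpp6 (0.0257) and Slc25a13 (0.0287), for Klk13 Psap (0.0350) and Slc4a9 (0.0350), for Klk8 Iqcb1 (0.0491) and Taz (0.0506), and for Spink5 Afap1 (0.0463) and Luzp1 (0.0464). Between 138 and 244 genes lay within 0.1 of each of these members, so the profiles are common ones. For Klk12 they were Duoxa1 (0.0735) and Fmnl2 (0.0940), and 3 genes lay within 0.1. The profile of Klk6 was less common, with none within 0.1, and the basal keratin Krt14 was among its nearest genes (0.158).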

How the data were processed

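RNA of epidermis was measured in 6 libraries, 3 per group, assigned from the sample titles. The authors deposited 1 table of FPKM per gene, with a column for each library. CASAVA and Cufflinks were used with GRCm38, per the submitters' processing notes; the notes give no versions, and aligner, annotation and strandedness are not stated there. FPKM divides by the library total and by length, so abundant genes and length trends move other values, and no read counts were used.

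GENCODE M21 matched 49195 of 49452 rows; of rows sharing a symbol, that with the highest mean stayed. Genes whose mean reached 1 FPKM in 1 group or both (13500) were fitted with limma 3.58.1 (R 4.3.3) as log2(FPKM + 1), with an intensity trend, no covariates and two-sided p-values, Benjamini-Hochberg adjusted over all tested genes (threshold 0.05). The members and lists were chosen with earlier results of these data known. The genes named beyond the members are the 3 of each list with the smallest p, every other tested kallikrein, the 2 genes flanking the cluster on each side and the 2 nearest profiles of each called member. Some genes that the rule names are left out here. Genes named outside that rule were chosen after their values were seen or for their textbook role. They are St14, Prss8, Prss27, Serpina12, Wfdc12, Wfdc18, Cdsn, Dsc1, Dsg1b, F2rl1, Tslp, Camp, Krt6a, the other Spink genes and the markers named by list. Rictor was named for the labels, 2310002F09Rik for its overlap with members and the untested kallikreins as the rest of their list. Alternatives were other pseudocounts, filters, scalings and variance models, a term for sex, a length and GC adjustment, an adjusted p threshold of 0.10, summed rows and each library left out in turn. Median scaling without control 264 was added after seeing the data.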

Additional observations from a re-analysis of the deposited data

How the results depend on the processing

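Over 20 alternatives the calls of Klk6, Klk10 and Klk13 held in all, and that of Klk12 in the 19 that tested it, with differences of 0.95 to 1.42, 0.53 to 0.74, -0.72 to -0.53 and 0.38 to 2.73. With the length and GC adjustment these differences were 1.37 for Klk6, 0.74 for Klk10, -0.53 for Klk13 and 1.38 for Klk12. Klk8 lost its call in 14 and Spink5 in 7, with signs kept. The number of called members stayed between 4 and 6, against 6, and between 4 and 5 with 1 library left out. Klk5, not called, turned to 0.055 with the length and GC adjustment and to 0.016 with median scaling without control 264. Klk11, not called, ran from -0.033 to 0.052 with 1 library left out, below 0 without control 261 (-0.022) or 265. Cdsn, not called, turned to -0.067 with array weights and -0.017 with a term for sex and ran from -0.037 to 0.060 with 1 library left out. The cause was not tested. Of all tested genes 3169 were called, against 6272 with array weights and 1852 with a term for sex (2 males and 1 female among controls, 1 male and 2 females among the others, read from Y-linked genes and Xist). With 1 library left out the count ran from 1462 to 3784: 1923 without control 261, 1462 without 263, 1745 without 265 and 1538 without 266. Of the calls 33.7% were higher, against 49.8% with median scaling, 49.6% with trimmed mean scaling, 47.9% with quantile normalization and 50.8% with the length and GC adjustment. Called proteases ran from 6 to 12 (10 in the fit reported), inhibitors from 8 to 22 (15), desmosome genes from 3 to 11 (7) and targets from 2 to 9 (5), and the call of Klk9 was lost in 7. No paired analysis was run because the labels give no litter or pairing of the libraries. No read counts were used, so the counting error of Klk12 and Klk14, the lowest members, is not given.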
